A study of Mus musculus with 6 samples.

Results

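This report describes 7 genes for subunits of the GABA-A receptor in RNA sequenced from mouse tissue: Gabra6, Gabrd, Gabra3, Gabra4, Gabra2, Gabra5 and Gabrb2. They were taken by gene symbol from the 24411 genes counted in each library, and all 7 were found and passed the filter on low counts, as did 15846 genes in all. The samples were 3 libraries from animals with the genotype Atoh7 Large Enhancer KO (KO) and 3 from wild-type animals (WT), all at postnatal day 18. The labels give no agent or treatment for either group, and no strain, sex, litter or pooling. They also do not give the position of the deleted enhancer or whether 1 or both copies were lost. Atoh7 is a proneural gene, best known because retinal ganglion cells need it to form, and the comparison asks what loss of its enhancer did to transcripts in this tissue.

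The GABA-A receptor is a chloride channel opened by GABA, the main inhibitory transmitter of the brain, and is assembled from several subunits, usually alpha, beta and gamma or delta. In the cerebellum the alpha6 subunit (Gabra6) is known as a product of mature granule neurons, the small excitatory cells of the granule layer. There it joins the delta subunit (Gabrd) in receptors outside synapses, which carry the tonic inhibition that Golgi cells set. The other 5 genes are used by many kinds of neuron in the brain, although granule neurons also contain Gabrb2. The alpha subunit also decides whether benzodiazepines such as diazepam bind: alpha subunits with a histidine at 1 site of the extracellular domain are sensitive, and alpha4 and alpha6, with an arginine there, are not.

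That site is shown because it divides the 5 alpha subunits studied into the classes compared further on. Each line gives 33 bases of coding sequence from GENCODE mouse release 21 transcripts, 5′ to 3′ on the coding strand, with the codon of the site in capitals. The codon is an arginine codon in Gabra4 and Gabra6 and a histidine codon in Gabra2, Gabra3 and Gabra5.
Gabra6: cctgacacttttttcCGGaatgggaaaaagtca
Gabra4: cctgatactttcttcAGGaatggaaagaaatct
Gabra2: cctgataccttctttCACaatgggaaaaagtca
Gabra3: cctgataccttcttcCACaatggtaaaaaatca
Gabra5: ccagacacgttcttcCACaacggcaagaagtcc

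The stretch upstream of Gabra6 is shown as well, since Gabra6 had the largest change of the 7 genes. The set of RefSeq start sites used here, on build GRCm38.p6, which is the mm10 build, covered 6 of the 7 genes, all but Gabrd. The 250 bases before the Gabra6 start lie at chr11:42321073-42321322 on the minus strand and hold 40.8% G and C, against a median of 52.0% over the same window of 27025 genes. Capitals mark the letters GCCAA, the reverse complement of TTGGC, which is a recognition element of nuclear factor I.
Gabra6: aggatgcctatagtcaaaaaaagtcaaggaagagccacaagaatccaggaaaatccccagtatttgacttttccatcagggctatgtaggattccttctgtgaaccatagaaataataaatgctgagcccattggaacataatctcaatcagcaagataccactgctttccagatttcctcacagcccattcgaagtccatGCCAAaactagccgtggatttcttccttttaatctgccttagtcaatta
These letters begin 49 bases before the start site. TTGGC was searched on both strands and is in 41.9% of all such windows, so a match by itself is common. The letters CANNTG, the E-box that basic helix-loop-helix factors recognise, were not in this window, and are in 66.0% of all windows.

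The libraries held 36849747 to 40858310 reads in genes in KO and 22812075 to 33076111 in WT, and the 7 genes had between 408 and 16726 reads each per library. The labels' protocol names cerebellum and the tissue field reads retina. Marker lists, chosen with earlier results of these data known, were summed in CPM, the read count scaled to library size (TMM). Granule neuron genes reached 2390 to 2930 CPM in KO and 3650 to 4270 CPM in WT. The 12 retinal genes summed to 19.2 to 23.3 CPM in KO and 16.3 to 18.4 CPM in WT, mostly Rom1 and Rlbp1. Atoh7 was at 0.744, 0.858 and 0.695 CPM in the KO libraries, against 1.94, 2.05 and 2.13 CPM in the WT libraries. Reads that fell outside annotated exons made up 16.8% to 18.2% of reads in KO and 31.1% to 34.1% in WT. WT replicate 1 alone had many Xist reads (1050 CPM) and no Ddx3y reads, so sex differs within WT. Of all genes tested, 31.3% passed an adjusted p of 0.05 (edgeR quasi-likelihood test), 13.4% higher and 17.9% lower in KO.

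Of the 7 subunit genes, 2 rose (Gabra3 and Gabra4) and 2 fell (Gabra6 and Gabrd) in KO, and Gabrb2, Gabra2 and Gabra5 did not pass. Both genes that fell are the granule neuron subunits, and both that rose are alpha subunits shared with other neurons. KO and WT ranges did not overlap for 5 of the 7, and for 44.8% of all genes tested. In KO, 3 of the 7 lay wholly above WT and 2 wholly below, against 20.5% and 24.3% of all genes tested. The median log2 fold change was 0.17 over the 7 genes and 0 over all genes tested. The labels do not say that replicates came from separate animals, so p-values here measure the spread between these samples.

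**Figure D1:**
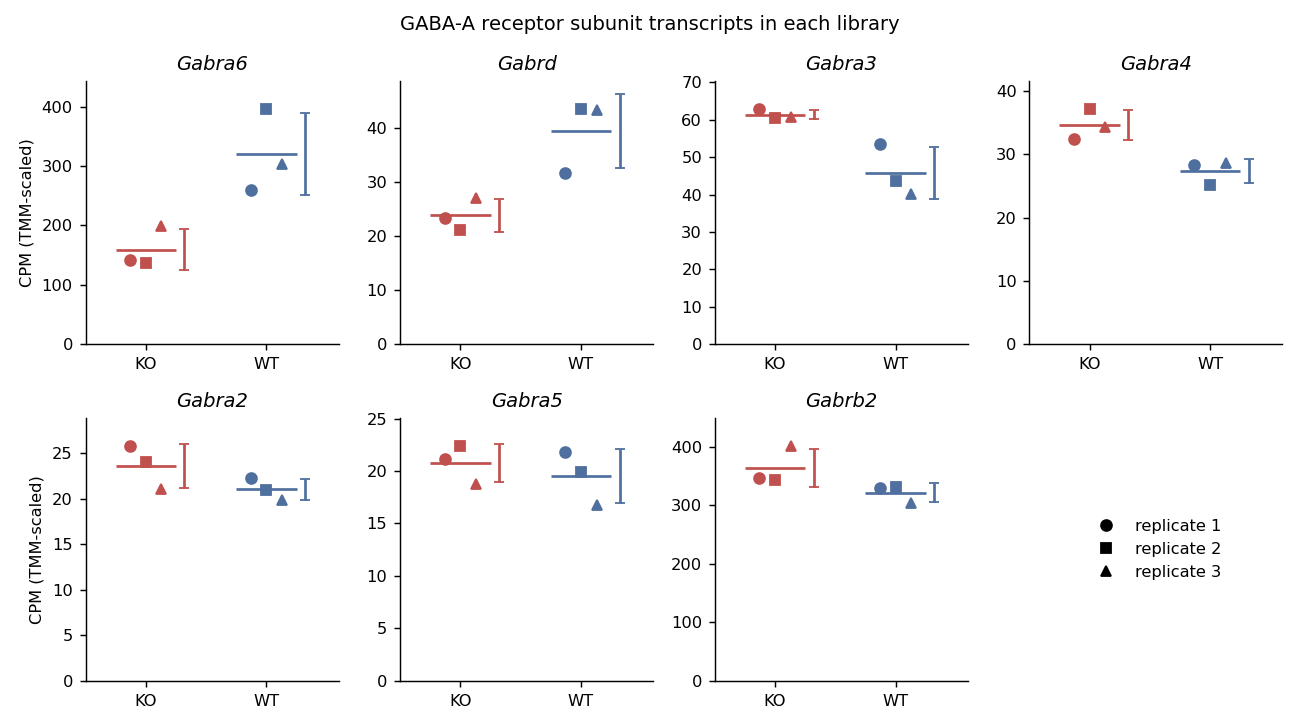
Level of each of the 7 subunit transcripts in TMM-scaled CPM (vertical axes, from 0) in the 3 KO and 3 WT libraries, with 1 point per library, a line at the mean and a bar for the SD. Gabra6 and Gabrd lie lower in every KO library than in any WT library, and Gabra3, Gabra4 and Gabrb2 lie higher.

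Gabra6, the alpha subunit of mature granule neurons, changed most. Its level was 141, 137 and 199 CPM in the KO libraries, against 260, 396 and 304 CPM in the WT libraries. KO replicate 3 was the highest of the KO libraries and still below WT replicate 1, the lowest of the WT libraries. The means were 159 ± 34.9 CPM in KO and 320 ± 69.4 CPM in WT (SD, n = 3 each), which is -1.0 ± 0.243 on the log2 scale (KO over WT with SE; edgeR adjusted p = 0.0414). In percent, the level fell by 50.1%. The highest value came from WT replicate 2, which also stood apart with 12.9% of its gene reads from Rn45s, a ribosomal RNA gene, against 1.51% to 3.02% in the other libraries, and 20.4% of its reads unmapped, against 7.79% to 8.32%. The call held without KO replicate 3 (edgeR adjusted p = 0.0325) and was lost without any 1 of the other libraries. The edgeR adjusted p was 0.129 without KO replicate 1, 0.124 without KO replicate 2, and 0.0583, 0.0860 and 0.107 without WT replicates 1, 2 and 3. The log2 fold change lay between -1.2 and -0.81 in these 6 fits. With no filter on low counts the edgeR adjusted p was 0.0580.

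Gabrd, the delta subunit that pairs with alpha6 outside synapses, fell as well. It had 23.4, 21.1 and 27.1 CPM in the KO libraries, against 31.7, 43.6 and 43.5 CPM in the WT libraries. The groups did not overlap, and WT replicate 1 was the WT library nearest to KO. The means were 23.9 ± 3.01 CPM in KO and 39.6 ± 6.84 CPM in WT (SD, n = 3 each), which is -0.72 ± 0.151 on the log2 scale (KO over WT with SE; edgeR adjusted p = 0.0127). Gabrd did not pass without KO replicate 1 (edgeR adjusted p = 0.0634).

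Markers of granule neurons moved with both genes. The list of these markers holds neither subunit. Of its 18 genes, 16 were called lower and 0 higher by edgeR, beside 17.9% and 13.4% of all genes tested. The median log2 fold change of these 18 genes was -0.60. Their sum was 2460, 2390 and 2930 CPM in the KO libraries, against 3650, 4270 and 4210 CPM in the WT libraries, and its most abundant members were Fat2 and Zic1. No member of the list was without reads. Set against this sum, Gabrd was at 9.53, 8.82 and 9.24 CPM per 1000 CPM of the list in KO and 8.68, 10.2 and 10.3 in WT, so the groups overlapped. Gabra6 was at 57.4, 57.3 and 68.1 CPM per 1000 CPM of the list in KO and 71.1, 92.6 and 72.2 in WT, and the groups did not overlap. The part of granule neuron number in these results was not tested, and in bulk RNA fewer cells of a type and less RNA per cell cannot be told apart. The share of reads outside exons moved with the groups too, and its part was not tested.

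**Figure D2:**
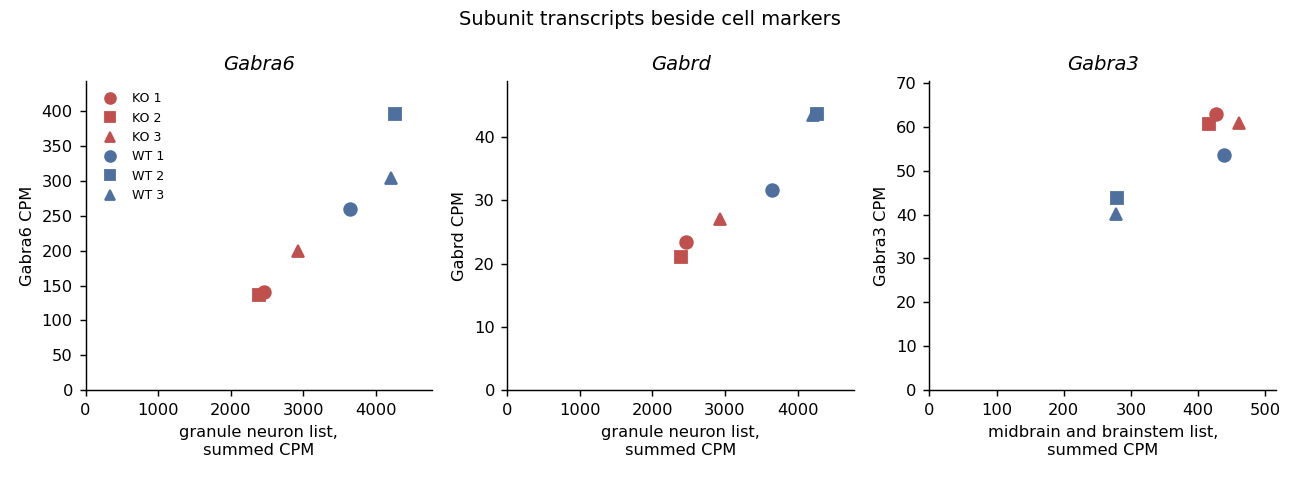
Gabra6 and Gabrd in CPM against the summed CPM of 18 granule neuron markers, and Gabra3 in CPM against the summed CPM of 18 midbrain and brainstem markers, with 1 point per library and all axes from 0. The KO libraries lie at 2390 to 2930 CPM of the granule list and the WT libraries at 3650 to 4270 CPM, and in the third panel WT replicates 2 and 3 lie at 279 and 278 CPM of the midbrain and brainstem list, apart from the other 4 libraries.

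Gabra3, whose alpha3 subunit is prominent in brainstem and monoamine neurons and in Golgi cells of the cerebellum, rose in KO. It had 62.8, 60.6 and 60.8 CPM in the KO libraries, against 53.4, 43.8 and 40.1 CPM in the WT libraries. The KO libraries were close together and all above WT replicate 1, the highest WT library. The means were 61.4 ± 1.24 CPM in KO and 45.8 ± 6.88 CPM in WT (SD, n = 3 each), which is 0.42 ± 0.0936 on the log2 scale (KO over WT with SE; edgeR adjusted p = 0.0100). The gene lies on the X chromosome, and without WT replicate 1, the library with Xist reads, its log2 fold change was 0.55.

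As a whole, a list of 18 midbrain and brainstem genes also placed WT replicate 1 above WT replicates 2 and 3. The list was chosen with earlier results of these data known, so its division of WT is a description only. On its sum WT replicate 1 lay within the KO range, whereas for Gabra3 it lay below that range. The list summed to 427, 416 and 461 CPM in the KO libraries, against 438, 279 and 278 CPM in the WT libraries, with Slc17a6 and Tcf7l2 the most abundant. Of its 18 members 1 was called higher (Th) and 1 lower (Barhl2), beside 13.4% and 17.9% of all genes tested. Th, Barhl2 and Tfap2d are named after their values were seen. Tfap2d, 1 of the members, had no reads in WT replicate 2 and 0.0888 CPM in WT replicate 3. It had 3.85 to 5.95 CPM in the other libraries. Slc17a6 (184, 135 and 131 CPM in WT replicates 1, 2 and 3) and Tcf7l2 (78.8, 34.7 and 30.7 CPM) divided WT likewise. Not all members did, among them Th (11.1, 10.6 and 10.7 CPM) and Barhl2 (20.5, 21.3 and 23.3 CPM). With WT replicates 2 and 3 both left out, Gabra3 had a log2 fold change of 0.22 and still passed (edgeR adjusted p = 0.0294), in a fit that assumes the lone WT library to vary like the KO libraries. In that fit Gabra6 and Gabrd missed the threshold, Gabra6 at -0.68 (edgeR adjusted p = 0.329) and Gabrd at -0.38 (0.0760) on the log2 scale. The part of tissue outside the cerebellum in these results was not tested.

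Gabra4, whose alpha4 subunit forms receptors outside synapses in forebrain and thalamus, also rose. It had 32.5, 37.1 and 34.3 CPM in the KO libraries, against 28.3, 25.2 and 28.7 CPM in the WT libraries. Every KO library was above every WT library. The means were 34.6 ± 2.35 CPM in KO and 27.4 ± 1.94 CPM in WT (SD, n = 3 each), which is 0.33 ± 0.0694 on the log2 scale (KO over WT with SE; edgeR adjusted p = 0.00346). Gabra4 passed without any 1 of the libraries and with WT replicates 2 and 3 both left out (edgeR adjusted p = 0.0327). None of the 4 called genes passed a test for a change beyond 1.2-fold, with edgeR adjusted p of 0.195 for Gabra3, 0.414 for Gabra4, 0.166 for Gabra6 and 0.0801 for Gabrd.

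Gabrb2, the beta2 subunit and the most abundant of the shared genes, had 347, 342 and 401 CPM in the KO libraries, against 330, 331 and 303 CPM in the WT libraries. The ranges did not overlap. Its log2 fold change was 0.18 ± 0.0638 (SE) and lay just outside the threshold (edgeR adjusted p = 0.0562). It was called higher with DESeq2 (adjusted p = 0.0194), with library size alone (edgeR adjusted p = 0.0258) and without KO replicate 2 (0.0432). Without KO replicate 3 its log2 fold change was 0.10 (edgeR adjusted p = 0.184).

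Gabra2, which in forebrain neurons marks synapses on the first segment of the axon, had 25.8, 24.0 and 21.0 CPM in the KO libraries, against 22.2, 21.0 and 19.9 CPM in the WT libraries. The groups overlapped, and the log2 fold change of 0.17 ± 0.0820 (SE) did not pass (edgeR adjusted p = 0.148), but did without KO replicate 3 (0.25, adjusted p = 0.0278). Without KO replicate 1 it was 0.11 (edgeR adjusted p = 0.381). Gabra5, best known from the hippocampus, had 21.2, 22.4 and 18.8 CPM in the KO libraries, against 21.8, 19.9 and 16.7 CPM in the WT libraries. The groups overlapped here as well, and the log2 fold change of 0.09 ± 0.101 (SE) did not pass (edgeR adjusted p = 0.532). It was -0.01 without WT replicate 3. The 3 prime end of Gabra5 shares 148 exon bases with Gm9962, an antisense gene, and 1.06% of its stranded reads were on the opposite strand.

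**Figure D3:**
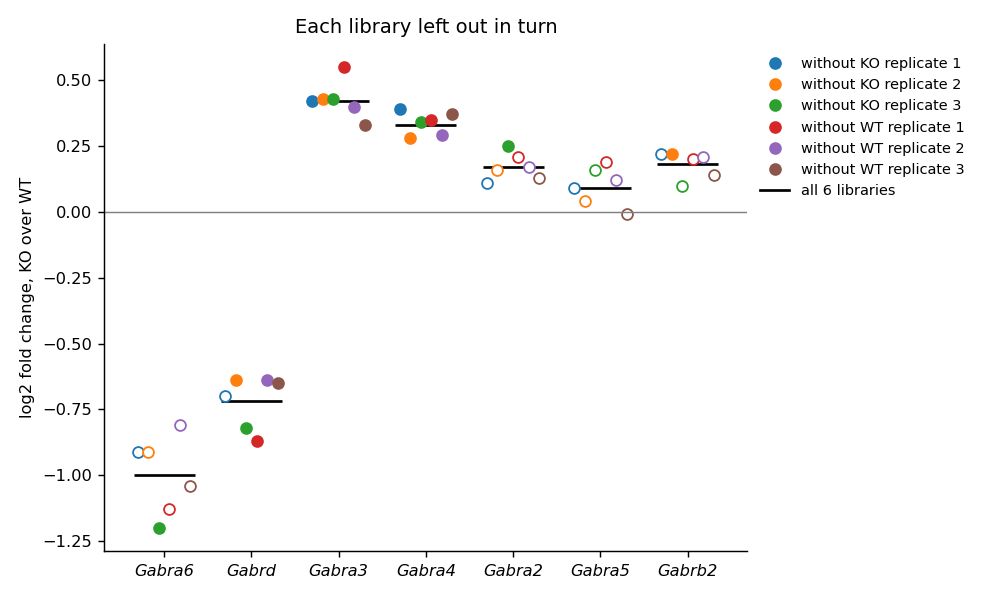
Log2 fold change of each of the 7 genes, KO over WT (vertical axis), with all libraries (black lines) and with each library left out in turn (points, filled where edgeR's adjusted p was under 0.05). Gabra6 keeps its direction at -1.2 to -0.81 and passes only without KO replicate 3, whereas Gabra3 and Gabra4 pass in every case.

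Levels of different genes were compared per kb of exon. In KO the order was Gabra6 at 64.0 ± 14.0, Gabrb2 at 57.1 ± 5.16, Gabra3 at 15.7 ± 0.316, Gabrd at 8.30 ± 1.05, Gabra5 at 6.98 ± 0.623, Gabra4 at 5.69 ± 0.386 and Gabra2 at 3.09 ± 0.316 CPM per kb (SD, n = 3). In WT it was Gabra6 at 128 ± 27.9, Gabrb2 at 50.5 ± 2.48, Gabrd at 13.8 ± 2.38, Gabra3 at 11.7 ± 1.75, Gabra5 at 6.55 ± 0.868, Gabra4 at 4.5 ± 0.319 and Gabra2 at 2.75 ± 0.155 CPM per kb (SD, n = 3). Gabra6 and Gabrb2 overlapped in KO, at 55.1 to 80.1 and 53.8 to 63.1 CPM per kb, and did not overlap in WT, at 104 to 159 and 47.7 to 52.1 CPM per kb. Gabrd and Gabra5 overlapped in KO, and Gabrd and Gabra3 in WT, so their order is within the spread of the libraries. With the longest transcript as length, Gabrb2 stood first in KO at 91.1 CPM per kb, ahead of Gabra6 at 64.5 CPM per kb, and Gabra4 stood ahead of Gabra5 in KO.

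Among transcripts of the 5 alpha subunits studied, Gabra6 took a smaller share in KO and the other 4 larger ones. Per kb of exon, Gabra6 made up 64.0%, 63.1% and 72.6% of these transcripts in the KO libraries, against 78.5%, 86.5% and 84.1% in the WT libraries. Gabra3 made up 16.6% ± 2.23 in KO and 7.79% ± 2.19 in WT (SD, n = 3 each). The groups did not overlap for either gene. The arginine codon shown above was carried by 70.1%, 70.1% and 77.7% of these transcripts in the KO libraries, against 82.0%, 88.8% and 87.3% in the WT libraries, although Gabra4, the rarer of its 2 carriers, rose. With the longest transcript as length the arginine share was 71.5% ± 4.46 in KO and 85.0% ± 3.69 in WT (SD, n = 3 each). The 5 genes together summed to 95.4 ± 12.9 CPM per kb in KO and 154 ± 26.5 CPM per kb in WT (SD, n = 3 each). Per kb, the sum of Gabra6 and Gabrd was 0.751, 0.725 and 0.960 times the sum of the 5 shared genes in the KO libraries, against 1.44, 2.27 and 1.94 times in the WT libraries. These shares and ratios follow from the levels above and carry no test of their own.

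**Figure D4:**
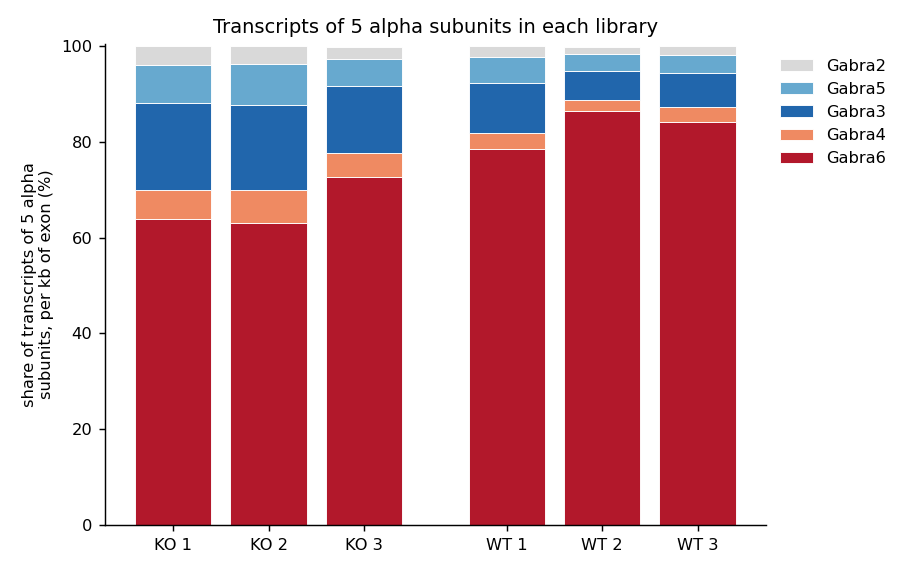
Share of each of the 5 alpha subunit genes studied in their summed transcripts, in percent per kb of exon (stacked bars, KO libraries on the left, WT libraries on the right). Gabra6 and Gabra4, with the arginine codon, are at the bottom in red and orange and together reach 70.1% to 77.7% in KO and 82.0% to 88.8% in WT.

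Of the 12 other subunit genes of the receptor, 10 passed the filter, and 1 of these rose and 0 fell by edgeR, beside 13.4% of all genes tested higher and 17.9% lower. The 1 of 10 that rose is near the share of any genes. DESeq2 called 2 higher and 0 lower, beside 2020 higher and 2412 lower among the 15846 genes tested. At an unadjusted p under 0.05, edgeR gave 3 higher and 0 lower. All genes were not counted at that cut-off, so these numbers have no share to be set against. The gene that rose was Gabrg1, a gamma subunit found in Bergmann glia, at 42.1, 45.7 and 43.8 CPM in the KO libraries, against 39.6, 40.5 and 37.4 CPM in the WT libraries. Of 16 Bergmann glia and astrocyte genes, 6 were called higher and 0 lower, and they summed to 9480 to 9920 CPM in KO and 8120 to 8380 CPM in WT; their part in the change of Gabrg1 was not tested. On the log2 scale the change of Gabrg1 is 0.17 ± 0.0538 (SE, with an edgeR adjusted p of 0.0343). It did not pass without KO replicate 2 or 3 or WT replicate 3 (edgeR adjusted p = 0.141, 0.0587 and 0.131), nor with DESeq2 (adjusted p = 0.0541). Gabrq, the theta subunit, was just outside the threshold at 18.3 ± 1.23 CPM in KO and 13 ± 3.29 CPM in WT (SD, n = 3 each; edgeR adjusted p = 0.0520). Its log2 fold change was 0.72 without WT replicate 1 and 0.15 with WT replicates 2 and 3 both left out. Gabrb1, Gabrg3, Gabre, Gabrr1 and Gabrr2 did not pass, with log2 fold changes from -0.75 for Gabrr2 to 0.44 for Gabrr1, both of which had at most 22 reads in a library. Gabrp and Gabrr3 had at most 3 reads in any library and were not tested.

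**Figure D5:**
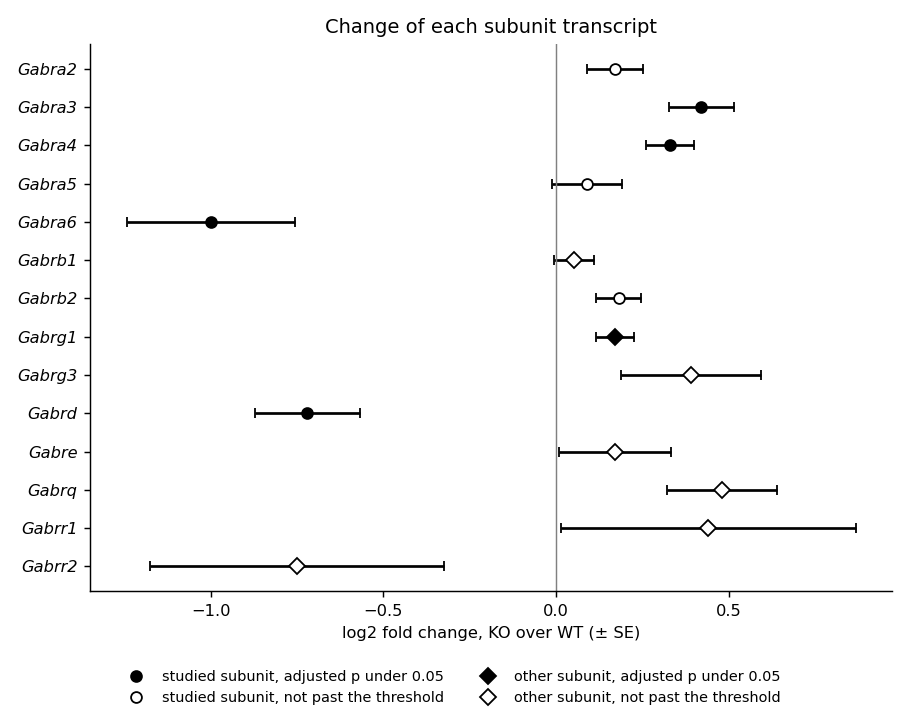
Log2 fold change of the 7 subunit genes and of other subunits named in the text, KO over WT, with its SE (horizontal axis); circles are the 7 genes, diamonds are other subunits, and filled symbols passed an edgeR adjusted p of 0.05. Gabra6 at -1.0, Gabrd at -0.72 and the sparsely read Gabrr2 at -0.75, which did not pass, lie on the left, and the rest lie between 0.05 and 0.48.

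The genes lie in clusters of subunits, and neighbours in a cluster did not all move alike. Gabra6 occupies 42306437 to 42321072 on the minus strand of chromosome 11 (mm10). Gabrb2 starts 98.7 kb away on the opposite strand. The log2 fold changes of this pair were -1.0 for Gabra6 and 0.18 for Gabrb2. On chromosome 5, Gabrg1 and Gabra2 each had 0.17, Gabra4 0.33 and Gabrb1 0.05. Gabra4 and Gabrb1 start on opposite strands and share 46 exon bases, and 0.811% of the stranded reads of Gabra4 were on the opposite strand. With unstranded counts the log2 fold change of Gabra4 was 0.36. On chromosome 7, Gabrg3 had 0.39 and Gabra5 0.09, and on the X chromosome Gabre had 0.17, Gabra3 0.42 and Gabrq 0.48. With WT replicates 2 and 3 both left out, these became -0.06 for Gabrg3, -0.05 for Gabra5, -0.12 for Gabre, 0.22 for Gabra3 and 0.15 for Gabrq. Gabrd, at 155384980 to 155398112 on the minus strand of chromosome 4, has no other subunit gene beside it, since Gabrr1 and Gabrr2 lie far away on that chromosome.

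Genes that place and traffic the receptor, and chloride transporters that set the direction of its current, were counted from a list of 20, of which 6 rose and 3 fell, with a median log2 fold change of 0.09. Of all genes tested, 13.4% were higher and 17.9% lower, so the 3 that fell are near the share of any genes. Lhfpl4, which links the receptor to neuroligin 2 at inhibitory synapses, had 123, 117 and 118 CPM in the KO libraries, against 98.1, 83.7 and 90.7 CPM in the WT libraries (0.39 ± 0.0547 on the log2 scale with SE; edgeR adjusted p = 0.000280). Gabarapl1, a relative of a receptor-trafficking protein, rose with a log2 fold change of 0.36, and Iqsec3, a gephyrin partner, with 0.28. With WT replicates 2 and 3 left out Iqsec3 was at 0.17 and missed the threshold (edgeR adjusted p = 0.0533). Slc12a2, the chloride importer NKCC1, fell with a log2 fold change of -0.21, but it missed the threshold with library size alone (edgeR adjusted p = 0.178) and without those WT libraries (0.112).

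The metabotropic GABA-B receptor and its channels had 3 genes higher and 2 lower of 8, with a median log2 fold change of -0.03, beside 13.4% of all genes tested higher and 17.9% lower. Its subunits Gabbr1 and Gabbr2 rose, to 839 ± 15.9 CPM in KO, against 687 ± 20.2 CPM in WT, for Gabbr1, and with a log2 fold change of 0.21 for Gabbr2. Kctd12, an auxiliary subunit, rose with a log2 fold change of 0.37. The potassium channel gene Kcnj6 fell to 27.9 ± 1.04 CPM in KO, against 36.9 ± 0.36 CPM in WT (SD, n = 3 each; log2 fold change -0.40, edgeR adjusted p = 0.000197).

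Transcripts of other cells that use these subunits also differed. Of 18 Purkinje cell genes, led by Itpr1 and Aldoc, 11 were called higher and 0 lower by edgeR (13.4% and 17.9% of all genes tested), and they summed to 9180 to 9660 CPM in KO and 6680 to 7920 CPM in WT. Of 18 genes of interneurons and Golgi cells, with Gad1 among the most abundant, 8 were called higher and 2 lower (again beside 13.4% and 17.9%), and they summed to 2410 to 2630 CPM in KO and 2140 to 2260 CPM in WT. Both sums were higher in every KO library than in any WT library, as were Gabra3, Gabra4, Gabrb2 and 20.5% of all genes tested. The same held for the sums of the Bergmann glia and astrocyte list and of the microglial list. The part of any of these cells in the changes of Gabra3 and Gabra4 was not tested. A list of 12 forebrain genes summed to 158 to 163 CPM in KO and 135 to 157 CPM in WT, mostly Ppp1r1b and Prox1, which cerebellar cells may also contain.

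The genes whose levels followed each subunit most closely over the 6 libraries were found by Pearson correlation of log2 CPM among genes with a mean of at least 10 CPM. For Gabra6 they were Scaper, Etv1 and Srbd1 (r = 0.998, 0.998 and 0.996), and for Gabrd Maml3, Zic1 and Phyhip (r = 0.996, 0.996 and 0.994). Etv1 and Zic1 are transcription factor genes on the granule neuron list. For Gabra3 they were Gda, Gtf3c4 and Arhgef4 (r = 0.999 each), and for Gabra4 Rimklb, Smox and Bri3 (r = 0.994, 0.991 and 0.986). For Gabrb2 they were Kpna1, Uqcrc2 and Mid2 (r = 0.980, 0.978 and 0.977). For Gabra2 they were Agpat1, Fads6 and Gstm7 (r = 0.991, 0.985 and 0.976), and for Gabra5 Tmem100, 2810468N07Rik and Scn3a (r = 0.979, 0.974 and 0.971). Over 6 libraries and 10309 candidate genes such values describe these libraries only, which share depth and the difference between groups.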

How the data were processed

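RNA from 3 KO and 3 WT samples was sequenced. The deposited files hold read counts per gene that the authors made with STAR; the submitters' processing notes name Trimmomatic, STAR and build mm10, with versions not given in the sources used here. Column 4, the stranded counts, was used, since it held at least 80% of stranded reads in every library. Genes were filtered with filterByExpr, scaled by TMM and tested with edgeR 4.0.16 in R 4.3.3 (quasi-likelihood test, two-sided, Benjamini-Hochberg adjustment over 15846 genes, threshold 0.05). Alternatives used DESeq2 1.42.0, limma 3.58.1 and mgcv 1.9.3. The code was tested on simulated data. Lengths and positions came from GENCODE mouse release 21, matched for 23334 genes by symbol and 667 by older symbol, with 410 not matched.

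The members and lists were chosen with earlier results of these data known. Some genes of these lists are not reported here. Genes named were otherwise the subunits, up to 4 called genes with the smallest p from the partner and GABA-B lists, the most abundant 2 of each marker list described, and the 3 most correlated genes per subunit (pseudocount of 0.5 CPM). Other genes are marked as named after their values were seen. No pair of libraries agreed within sampling noise, so each counted as 1 sample. The lists of 12 oligodendrocyte, 10 endothelial, 10 microglial and 6 choroid genes had 1, 0, 5 and 0 genes higher. In the same order 3, 6, 0 and 0 genes were lower, beside 13.4% of all genes tested higher and 17.9% lower.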

Additional observations from a re-analysis of the deposited data

How the results depend on the processing

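With 3 libraries a group, calls near the threshold moved with single libraries. Of 91 values of the 7 subunit genes under alternatives that kept all libraries or left out WT replicates 2 and 3, 74 kept their direction and side of the threshold, 8 lost the call, 8 gained one and 1 changed sign. Gabra5, not called in any, was at -0.05 without WT replicates 2 and 3, and at -0.01 to 0.19 with 1 library left out. Of 42 values with 1 library left out, 33 kept direction and side, 6 lost the call, 2 gained one and 1 changed sign. The causes were not tested.

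The 2 subunit genes called higher became 0 at a minimum fold of 1.2 and 4 with the trend over gene structure (introns, transcript length, GC) removed. They became 3 with library size alone, no filter, DESeq2, unstranded counts, a threshold of 0.1 or Rn45s removed, with Gabrb2 the added gene. With 1 library left out, 2 or 3 were called higher. The 2 called lower became 1 with no filter on low counts, 0 at a minimum fold of 1.2, 0 without WT replicates 2 and 3, and 0 to 2 with 1 library left out. Of the other subunits, 1 called higher became 2 with RLE size factors, library size alone, no filter, DESeq2 or limma-voom. It became 3 with unstranded counts, a threshold of 0.1 or Rn45s removed, 5 with the trend removed, 0 at a minimum fold of 1.2 or without WT replicates 2 and 3, and 0 to 3 with 1 library left out. The arginine share by longest transcript was added after seeing the data.

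Over all genes, 2120 were higher and 2844 lower. A minimum fold of 1.2 left 83 higher and 908 lower, library size alone gave 2165 and 1689, and removing the trend gave 3276 and 2154. Without WT replicates 2 and 3, 1489 were higher and 1640 lower. With 1 library left out, 1420 to 2214 were higher and 2181 to 2710 lower.

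Replicate numbers showed no clear pairing of the libraries: deviations from the group means correlated at 0.065, -0.061 and -0.171 between KO and WT libraries of the same number. With 3 libraries a group these correlations depend on each other, so they cannot show whether libraries of the same number shared a litter or preparation. KO replicate 1 correlated best with WT replicate 3 (0.121) and KO replicate 3 with WT replicate 2 (0.186). With the replicate number as a block, 1961 genes were higher and 2635 lower, 1 subunit gene was called lower in place of 2 (Gabra6, edgeR adjusted p = 0.106), and 2 other subunits were higher in place of 1.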
